A study of Mus musculus with 18 samples.

Results

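The 8 genes described here encode proteins that bind the mRNA cap or act on cap-binding proteins to repress translation. They were chosen by name: Eif4e and its relative Eif4e2, the eIF4E-binding proteins Eif4ebp1, Eif4ebp2 and Eif4enif1, and Gigyf1, Gigyf2 and Zfp598, which work with the protein of Eif4e2. They are 8 of the 51467 genes in the count table, and all 8 were among the 12705 genes that passed the filter on low counts. The cells were mouse embryonic stem cells (ESCs) of the V6.5 line, unedited (wild type, WT) or lacking Ddx6 (Ddx6 KO), the gene of an RNA helicase of translational repression and mRNA decay, and were analysed by polysome profiling. All cells grew in medium with serum, LIF and the 2i inhibitors, and all were treated with 100 ug/ml cycloheximide for 2 min to hold ribosomes on the mRNA before lysis. Each lysate was separated on a sucrose gradient into a monosome fraction, a low polysome fraction (2 to 4 ribosomes) and a high polysome fraction (from 4 ribosomes), so each of the 6 groups held 3 libraries and the series 18. The KO cells came from only 2 CRISPR clones: clone 1 gave KO gradient 1, and clone 2 gave KO gradients 2 and 3. Nothing in the labels says that the gradients of one genotype came from separate cultures, so p-values measure the spread between these gradients, which may be technical.

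eIF4E recognizes the 5′ cap of an mRNA and, with the scaffold eIF4G and the helicase eIF4A, forms the eIF4F complex that brings in the ribosome. The 4E-BPs, here Eif4ebp1 and Eif4ebp2 (another 4E-BP gene, Eif4ebp3, is not among the 8), compete with eIF4G for eIF4E and let go of it when the kinase mTORC1 phosphorylates them. 4E-T, the product of Eif4enif1, also binds eIF4E, carries it to P-bodies and contacts DDX6. 4EHP, the product of Eif4e2, binds the cap but does not join eIF4G, and it represses mRNAs as a partner of GIGYF1 or GIGYF2, to which the ubiquitin ligase ZNF598 (Zfp598), a sensor of collided ribosomes, can bind. These are protein functions. The libraries measured how much of each mRNA lay in each fraction.

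Proteins that hold eIF4E or 4EHP share a short motif: a tyrosine, 4 further residues, a leucine or methionine, and then a hydrophobic residue. A search of the longest annotated coding sequence of each gene (Gencode M21, GRCm38) for a tyrosine codon, 4 codons of any kind, a leucine or methionine codon and a leucine, methionine, phenylalanine, isoleucine or valine codon found the motif in 5 of the 8 genes and not in Eif4e, Eif4e2 or Zfp598. The first match in each of the 5 is printed so that the stretches can be compared. The 5 include both 4E-BP genes of the set and both Gigyf genes, so they are not 5 unrelated sequences. Each line gives 21 nucleotides of coding sequence, 5′ to 3′ on the gene's own strand, with the tyrosine codon and the leucine or methionine codon in capitals.
Eif4ebp1: TATgaccggaaatttCTGatg
Eif4ebp2: TATgaccgaaagtttCTGttg
Eif4enif1: TATacgaaagaggagCTCttg
Gigyf1: TATgggcgagaggagATGctg
Gigyf2: TATggccgagaagaaATGtta
The stretch starts at codon 53 in Eif4ebp1 (chr8:27273337-27273357, plus strand), codon 54 in Eif4ebp2 (chr10:61435069-61435089, minus strand), codon 29 in Eif4enif1 (between chr11:3203742 and 3213271, plus strand, split by an intron), codon 41 in Gigyf1 (chr5:137519168-137519188, plus strand) and codon 43 in Gigyf2 (chr1:87364189-87364209, plus strand). The 4E-BP genes and Eif4enif1 have a leucine codon at the second marked place, and both Gigyf genes have a methionine codon. Gigyf1 and Gigyf2 each hold a second match further on, at codon 505 in Gigyf1 and codon 563 in Gigyf2. A match is a description of these letters, and binding was not measured. The share of all coding sequences with such a match was not counted, so 5 of 8 is not shown to be particular to these genes.

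The libraries held between 2543617 and 11474550 counts in genes, and the 3 WT monosome libraries were the shallowest. The members had between 99 and 18952 counts in a library, the lowest being Gigyf2. Levels are given as CPM, the usual depth-scaled count of a gene in a library, after TMM scaling, each from 3′ end tags. Ddx6 itself was lower in KO than in WT in every fraction, with log2 differences of -2.35, -2.62 and -3.32 in monosomes, low and high polysomes, but it was still counted at 9.64 to 82.4 CPM in the KO libraries, with all 3 libraries of clone 1 above the 6 of clone 2. The 3′ tags lie outside the edited part of the gene, so they do not check the edit itself. All 8 ESC markers examined were detected, with summed levels of 2294 to 5516 CPM in WT and 2423 to 4098 CPM in KO. Of 6 fibroblast markers the summed level was 6.71 to 14.6 CPM in WT and 10.1 to 15.4 CPM in KO, with Col3a1 at 0, and of 5 primitive endoderm markers 1.98 to 7.28 CPM and 2.88 to 10.2 CPM. The 4 formative and primed epiblast markers summed to 103 to 148 CPM in WT and 32.6 to 80.1 CPM in KO, with Fgf5 at 0. The part of that difference in the results below was not tested.

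Eif4e (chr3:138526179-138559696, plus strand, ENSMUSG00000028156.12) was the member whose mRNA lay furthest towards high polysomes in WT cells. Its level in WT monosomes was 69.8, 67.1 and 57.6 CPM in gradients 1, 2 and 3, against 110, 139 and 104 CPM in WT high polysomes. In KO cells it was 63.0, 79.4 and 71.9 CPM in monosomes and 68.6, 77.1 and 86.9 CPM in high polysomes. Monosomes and high polysomes did not overlap in WT, whereas they did in KO, and every KO high polysome library was below every WT one. Low polysomes held 66.8, 74.0 and 73.8 CPM in WT and 73.8, 72.3 and 68.9 CPM in KO. In the order of the 6 group means, WT high polysomes stood apart at the top, and each of the 5 groups below overlapped its neighbour in the order.

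Eif4e2 (chr1:87213914-87240488, plus strand, ENSMUSG00000026254.17) was lower in KO cells in all 3 fractions. Monosomes held 480, 502 and 467 CPM in WT and 376, 371 and 353 CPM in KO. Low polysomes held 584, 644 and 740 CPM in WT and 418, 428 and 380 CPM in KO. High polysomes held 333, 354 and 356 CPM in WT and 268, 295 and 292 CPM in KO. No KO library reached a WT library of the same fraction, and in both genotypes the order was low polysomes, monosomes, high polysomes. Among neighbours in the order of all groups, KO monosomes and WT high polysomes alone overlapped.

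Eif4ebp1 (chr8:27260329-27276674, plus strand, ENSMUSG00000031490.6) peaked in low polysomes in WT cells and not in KO cells. WT low polysomes held 2313, 1960 and 1567 CPM, against 1102, 1177 and 1252 CPM in WT monosomes. KO low polysomes held 1090, 954 and 926 CPM, against 1151, 907 and 1094 CPM in KO monosomes. The KO low polysome libraries were all below the WT ones, while the monosome libraries of the genotypes overlapped. High polysomes were lowest in both genotypes, at 631, 608 and 636 CPM in WT and 445, 424 and 392 CPM in KO.

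Eif4ebp2 (chr10:61428491-61452661, minus strand, ENSMUSG00000020091.15) fell from monosomes to high polysomes in both genotypes and was lower in KO throughout. Monosomes held 1637, 1602 and 1345 CPM in WT and 952, 853 and 834 CPM in KO. Low polysomes held 812, 745 and 429 CPM in WT and 394, 324 and 365 CPM in KO, with WT gradient 3 well below the other WT gradients but still above all KO gradients. High polysomes held 363, 396 and 298 CPM in WT and 201, 216 and 174 CPM in KO. Thus the genotypes did not overlap in any fraction.

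Eif4enif1 (chr11:3202392-3244588, plus strand, ENSMUSG00000020454.17) had the narrowest spread of group means for its level among the 8 genes. Monosomes held 52.0, 45.1 and 42.7 CPM in WT and 58.2, 68.4 and 60.4 CPM in KO, without overlap. Low polysomes held 58.2, 61.0 and 54.6 CPM in WT and 78.1, 53.8 and 76.1 CPM in KO, and KO gradient 2 stood below all WT gradients. High polysomes held 57.0, 65.2 and 58.0 CPM in WT and 68.0, 70.8 and 59.7 CPM in KO. In the order of the 6 group means WT monosomes alone stood apart, at the bottom.

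Gigyf1 (chr5:137518548-137527935, plus strand, ENSMUSG00000029714.11) was low in WT high polysomes. It stood at 25.1, 25.0 and 22.1 CPM there, against 76.6, 75.4 and 60.9 CPM in WT monosomes. KO high polysomes held 40.3, 51.0 and 37.5 CPM, against 60.0, 59.5 and 52.9 CPM in KO monosomes. Every KO high polysome library was above every WT one. Low polysomes were scattered, at 69.6, 52.9 and 38.0 CPM in WT and 45.5, 23.9 and 44.4 CPM in KO.

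Gigyf2 (chr1:87326998-87450796, plus strand, ENSMUSG00000048000.15) had KO levels on opposite sides of the WT levels at the ends of the gradient. Monosomes held 39.3, 45.1 and 44.2 CPM in WT and 24.2, 34.0 and 26.5 CPM in KO. High polysomes held 28.3, 34.0 and 31.2 CPM in WT and 37.4, 36.7 and 43.9 CPM in KO. The genotypes did not overlap in either fraction, with KO below WT in monosomes and above it in high polysomes. Only the monosome difference had a limma adjusted p under 0.05 (0.0074, against 0.0861 in high polysomes). Low polysomes held 46.5, 56.5 and 71.0 CPM in WT and 36.5, 38.0 and 42.1 CPM in KO.

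Zfp598 (chr17:24669687-24682016, plus strand, ENSMUSG00000041130.9) was lowest in low polysomes, unlike the other 7 genes in WT cells. WT gradients held 213, 181 and 171 CPM in monosomes, 60.3, 55.3 and 41.8 CPM in low polysomes and 110, 117 and 102 CPM in high polysomes. KO gradients held 161, 141 and 138 CPM in monosomes, 52.8, 41.2 and 59.2 CPM in low polysomes and 106, 111 and 100.5 CPM in high polysomes. The dip in low polysomes was present in all 6 gradients. The genotypes overlapped in both polysome fractions and not in monosomes.

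**Figure D1:**
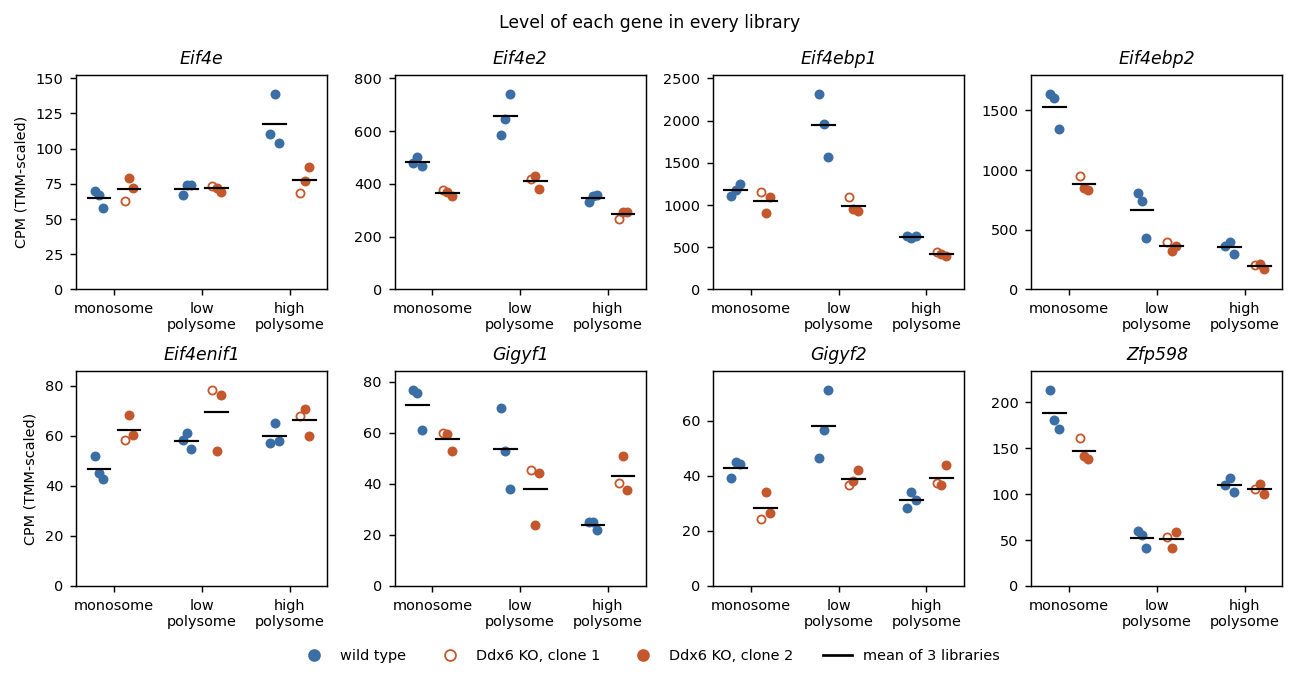
TMM-scaled CPM (y axis, linear from 0) of each of the 8 genes in the 18 libraries by fraction (x axis), with WT in blue, Ddx6 KO in orange (open circles clone 1, filled circles clone 2) and a black line at the mean of 3 libraries. Gigyf1 and Gigyf2 are higher in KO than in WT high polysomes, Eif4e is lower there, and Eif4e2 and Eif4ebp2 are lower in KO in all 3 fractions. The high polysome difference of Gigyf2 did not pass the test (limma adjusted p = 0.0861).

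The first question was how each mRNA was spread over the fractions of WT cells. The translation level, the log2 difference between high polysomes and monosomes, was above 0 for Eif4e (0.86, SE 0.14, limma adjusted p = 2.2e-05) and Eif4enif1 (0.38, SE 0.15, limma adjusted p = 0.0357). It was below 0 for the other 6 members. Of these, Eif4ebp2 was lowest (-2.12, SE 0.18), followed by Gigyf1 (-1.55, SE 0.23), Eif4ebp1 (-0.91, SE 0.13), Zfp598 (-0.77, SE 0.14), Eif4e2 (-0.48, SE 0.11) and Gigyf2 (-0.47, SE 0.17). The cap-binding activator thus lay towards high polysomes and Eif4ebp1, Eif4ebp2, both Gigyf genes, Eif4e2 and Zfp598 towards monosomes, while 4E-T went with Eif4e. In all, 2 of 8 members were higher and 6 of 8 lower in high polysomes, against 28.9% and 32.2% of all genes tested, and the members' median was -0.62 against -0.018 over all genes. The call for Eif4enif1 was lost without WT gradient 2 (limma adjusted p = 0.236) and without WT gradient 3 (0.175), and the call for Gigyf2 without WT gradient 1, 2 or 3 (0.0833, 0.0702 and 0.0655).

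Between low polysomes and monosomes of WT cells the members divided differently. Eif4ebp1 (0.71, SE 0.13) and Eif4e2 (0.43, SE 0.11) were higher in low polysomes. Zfp598 (-1.85, SE 0.15) and Eif4ebp2 (-1.25, SE 0.18) were lower. Hence the mRNAs of Eif4ebp1 and Eif4ebp2, both with a short coding sequence and both low in high polysomes, moved in opposite directions at this step. These were 2 of 8 members higher and 2 of 8 lower, against 20.4% and 22.8% of all genes. Gigyf2 had a value of 0.40 (SE 0.17, limma adjusted p = 0.0557), which passed the threshold in the fit with the gradient as a replicate block (0.43, limma adjusted p = 0.0308), and also by edgeR's quasi-likelihood test (0.0357), the DESeq2 Wald test (0.0334), with no filter (0.0422) and without WT gradient 1 (0.0326). The call for Eif4e2 was lost without WT gradient 3 (0.32, limma adjusted p = 0.0693).

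In Ddx6 KO cells the same difference between high polysomes and monosomes was above 0 for Gigyf2 (0.49, SE 0.16, limma adjusted p = 0.0107). It was below 0 for Eif4ebp2 (-2.16, SE 0.18), Eif4ebp1 (-1.32, SE 0.13), Zfp598 (-0.47, SE 0.14) and Eif4e2 (-0.36, SE 0.11). It was 0.12 (SE 0.13) for Eif4e, 0.084 (SE 0.14) for Eif4enif1 and -0.43 (SE 0.21) for Gigyf1, and none of these 3 passed the test. Gigyf1 was called lower with library size alone (-0.53, limma adjusted p = 0.0345), with the compared groups alone (-0.50, 0.0070), and on leaving out WT gradient 1 (0.0428), WT gradient 3 (0.0475) or KO gradient 2 (0.0334). The calls amounted to 1 of 8 members higher and 4 of 8 lower, against 35% and 33.6% of all genes. The call for Gigyf2 was lost without KO gradient 1 (0.42, limma adjusted p = 0.0728) or 3 (0.39, limma adjusted p = 0.117), and that for Zfp598 without KO gradient 1 (-0.41, limma adjusted p = 0.0523).

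The comparison the design was made for is the KO effect on translation level, the difference between the KO and WT translation levels. The translation levels of the mRNAs of both GIGYF proteins rose and that of Eif4e fell. Gigyf1 rose by 1.12 on the log2 scale (2.17-fold, SE 0.31, limma adjusted p = 0.0188), from gradient values of -1.59, -1.57 and -1.45 in WT to -0.57, -0.22 and -0.49 in KO. Gigyf2 rose by 0.96 (1.95-fold, SE 0.23, limma adjusted p = 0.0087), from -0.47, -0.40 and -0.50 in WT to 0.62, 0.11 and 0.72 in KO. Eif4e fell by 0.75 on the log2 scale (0.597-fold, SE 0.19, limma adjusted p = 0.0124), from 0.66, 1.04 and 0.85 in WT to 0.12, -0.041 and 0.27 in KO. The KO and WT gradients of these 3 genes did not overlap, but those of Eif4ebp1 and Zfp598, which were not called, did not overlap either. How many of all genes separate in this way was not counted, so the separation adds nothing to the calls. Gigyf2 was below 0 in all 3 WT gradients and above 0 in all 3 KO gradients. Thus 2 of 8 members were higher and 1 of 8 lower, against 10.7% and 7.09% of all genes, and the members' median change was 0.036 against 0.022 over all genes. The background depends on the scaling: 1357 genes were higher and 901 lower with TMM, and 936 higher and 1389 lower with library size alone, which put the median of all genes at -0.10, while Gigyf1, Gigyf2 and Eif4e stayed called at 0.99, 0.84 and -0.87.

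The other 5 members did not pass this test. Their changes were -0.40 for Eif4ebp1 (95% interval -0.79 to -0.017, limma adjusted p = 0.134), -0.30 for Eif4enif1 (-0.73 to 0.13), -0.040 for Eif4ebp2 (-0.57 to 0.49), 0.11 for Eif4e2 (-0.20 to 0.42) and 0.30 for Zfp598 (-0.12 to 0.72). Eif4ebp1 and Zfp598 had single-gradient values that did not overlap between genotypes, lower in KO for Eif4ebp1 and higher for Zfp598. The share of all genes with such a separation was not counted, so it marks neither gene as changed. With 3 gradients a genotype, an exact two-sided permutation test of a single gene cannot go below p = 0.1, and it gave that value for Eif4e, Eif4ebp1, Gigyf1, Gigyf2 and Zfp598.

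Several gradients decide these calls. The call for Gigyf1 was lost on leaving out WT gradient 1 (limma adjusted p = 0.0640), WT gradient 2 (0.0890) or KO gradient 3 (0.0622), for Gigyf2 without KO gradient 3 (0.0818) and for Eif4e without WT gradient 2 or KO gradient 2 (0.0694 and 0.0633), while the changes stayed between 0.996 and 1.19 for Gigyf1, 0.82 and 1.15 for Gigyf2 and -0.93 and -0.65 for Eif4e. Over all alternatives the limma, edgeR or DESeq2 adjusted p ran from 0.000932 to 0.193 for Gigyf1, from 0.00347 to 0.251 for Gigyf2 and from 0.00192 to 0.224 for Eif4e, the highest coming in each case from the subtraction of the coding length trend. With KO gradient 1 left out, so that only clone 2 remained, all 3 kept their call, at 1.19, 0.89 and -0.75.

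**Figure D2:**
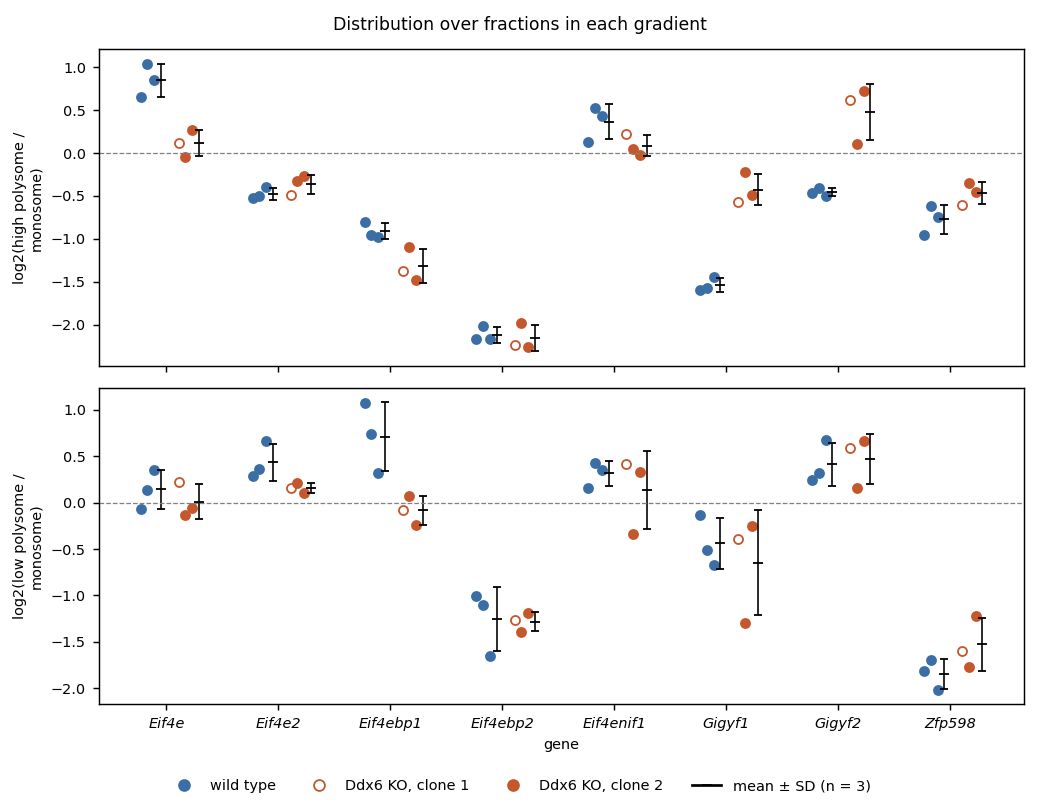
The log2 ratio of high polysome to monosome CPM (top) and of low polysome to monosome CPM (bottom) in each gradient, with a pseudocount of 0.5 CPM, WT in blue and Ddx6 KO in orange (open circles clone 1), and black bars for mean ± SD of 3 gradients. In the top panel the KO gradients of Gigyf1 and Gigyf2 sit above all WT gradients and those of Eif4e below, and in the bottom panel those of Eif4ebp1 and Eif4e2 sit below.

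The KO effect on translation level went with coding length across all genes, and the members span that range. Coding lengths of 11778 of the 12705 genes tested (92.7%) were known. At the 3132 nt of Gigyf1 and the 3873 nt of Gigyf2 the trend over all genes lay at 0.43 and 0.50, and at the 651 nt of Eif4e it lay at -0.35. After this trend was subtracted, Gigyf1 stood at 0.69 (limma adjusted p = 0.193), Gigyf2 at 0.46 (0.251) and Eif4e at -0.40 (0.224), each still on the same side of 0 and none called. Eif4enif1, whose change of -0.30 was on the other side of the trend for its 2949 nt (0.41), was then lower at -0.71 (limma adjusted p = 0.0456). Eif4ebp1 and Eif4ebp2, at 351 and 360 nt the shortest members, stood at trend values of -0.59 and -0.58 and came out at 0.19 and 0.54 without a call. The part of coding length in the changes of the members was not tested beyond this subtraction.

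**Figure D3:**
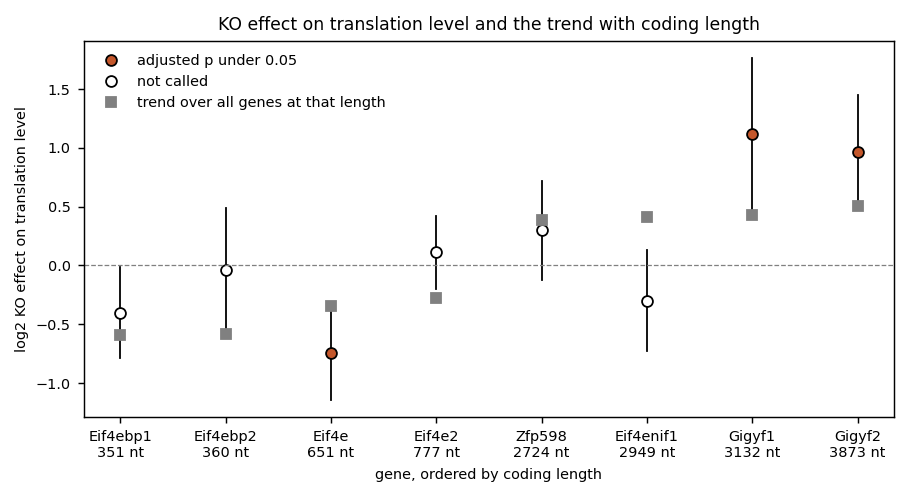
KO effect on translation level (log2, y axis) of the 8 genes in order of coding length (x axis), with 95% intervals, filled circles where the limma adjusted p was under 0.05 and grey squares at the trend of all genes at that length. Gigyf1 and Gigyf2 lie above a trend of 0.43 and 0.50, Eif4e lies below a trend of -0.35, and Eif4enif1 lies below a trend of 0.41.

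The KO effect on low polysomes over monosomes was called for 1 member. Eif4ebp1 fell by 0.79 on the log2 scale (0.578-fold, SE 0.18, limma adjusted p = 0.0213). Its gradient values were 1.07, 0.74 and 0.32 in WT and -0.078, 0.073 and -0.24 in KO, so all WT gradients were above all KO gradients. Among the other 7 members the changes ran from -0.28 for Eif4e2 to 0.32 for Zfp598, and Gigyf1 (-0.21, SE 0.31) and Gigyf2 (0.076, SE 0.23) were not called here. Eif4e2 was not called either (limma adjusted p = 0.300), though its gradient values of 0.28, 0.36 and 0.66 in WT and 0.16, 0.21 and 0.11 in KO did not overlap (exact permutation p = 0.1, the smallest possible). The share of all genes with such a separation was not counted here either. The counts were 0 of 8 higher and 1 of 8 lower, against 2.31% and 2.39% of all genes. In numbers these were 294 genes higher and 304 lower, against 229 and 494 with library size alone. The 0 higher was also found with edgeR's quasi-likelihood test and the DESeq2 Wald test, and no member was higher at an unadjusted p under 0.05. The call for Eif4ebp1 was lost on leaving out WT gradient 1 (limma adjusted p = 0.124), WT gradient 2 (0.113) or KO gradient 3 (0.167), in a fit of the 4 compared groups alone (-0.70, limma adjusted p = 0.0762) and after the coding length trend was subtracted (-0.28, limma adjusted p = 0.490), and over all alternatives its adjusted p ran from 0.00206 to 0.490.

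Set fraction by fraction, KO libraries held less Eif4e2 and Eif4ebp2 mRNA throughout, and less of other members in single fractions. A lower level in a fraction can come from less of the mRNA in the cell or from its place in the gradient, and these cannot be told apart from 1 fraction. In monosomes Eif4ebp2 (-0.79, SE 0.18), Gigyf2 (-0.63, SE 0.17) and Eif4e2 (-0.40, SE 0.11) were lower and Eif4enif1 was higher (0.44, SE 0.15, limma adjusted p = 0.0302). That made 1 of 8 higher and 3 of 8 lower, against 18.6% and 20.1% of all genes. The call for Eif4enif1 was lost without WT gradient 2 or 3 or KO gradient 2 or 3 (limma adjusted p = 0.110, 0.148, 0.0586 and 0.0616). Zfp598 had a value of -0.35 (SE 0.14, limma adjusted p = 0.0596) and was called lower with the DESeq2 Wald test (0.0412), with the compared groups alone (0.0289) and without WT gradient 3 (0.0394).

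In low polysomes Eif4ebp1 (-0.96, SE 0.13, 0.514-fold), Eif4ebp2 (-0.82, SE 0.18), Eif4e2 (-0.68, SE 0.11) and Gigyf2 (-0.55, SE 0.15) were lower, and Gigyf1 had a value of -0.50 (SE 0.22, limma adjusted p = 0.0642). Gigyf1 was called lower on leaving out WT gradient 3 (-0.73, limma adjusted p = 0.0115), KO gradient 1 (-0.63, 0.0470) or KO gradient 3 (-0.68, 0.0423). None was higher by limma, at an adjusted or at an unadjusted p under 0.05, nor by edgeR's quasi-likelihood test or the DESeq2 Wald test, but Eif4enif1 was higher when KO gradient 2 was left out (0.42, limma adjusted p = 0.0163). The counts were 0 of 8 higher and 4 of 8 lower, against 23.4% and 24.3% of all genes. Without WT gradient 3 the value for Gigyf2 was -0.40 and its call was lost (limma adjusted p = 0.0547).

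In high polysomes Eif4ebp2 (-0.83, SE 0.18), Eif4e (-0.60, SE 0.13), Eif4ebp1 (-0.57, SE 0.13) and Eif4e2 (-0.29, SE 0.11) were lower and Gigyf1 was higher (0.83, SE 0.22, 1.77-fold, limma adjusted p = 0.0049). Gigyf2 had a value of 0.33 (SE 0.16, limma adjusted p = 0.0861). The counts were 1 of 8 higher and 4 of 8 lower, against 25.3% and 21.1% of all genes. The call for Eif4e2 was lost when WT gradient 2 or 3 or any 1 KO gradient was left out (limma adjusted p = 0.103, 0.0681, 0.102, 0.0598 and 0.0556). Eif4ebp2 and Eif4e2 were the members lower in all 3 fractions, and Eif4ebp2 fell by nearly the same amount in each, with a KO effect on translation level of -0.040 (95% interval -0.57 to 0.49).

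**Figure D4:**
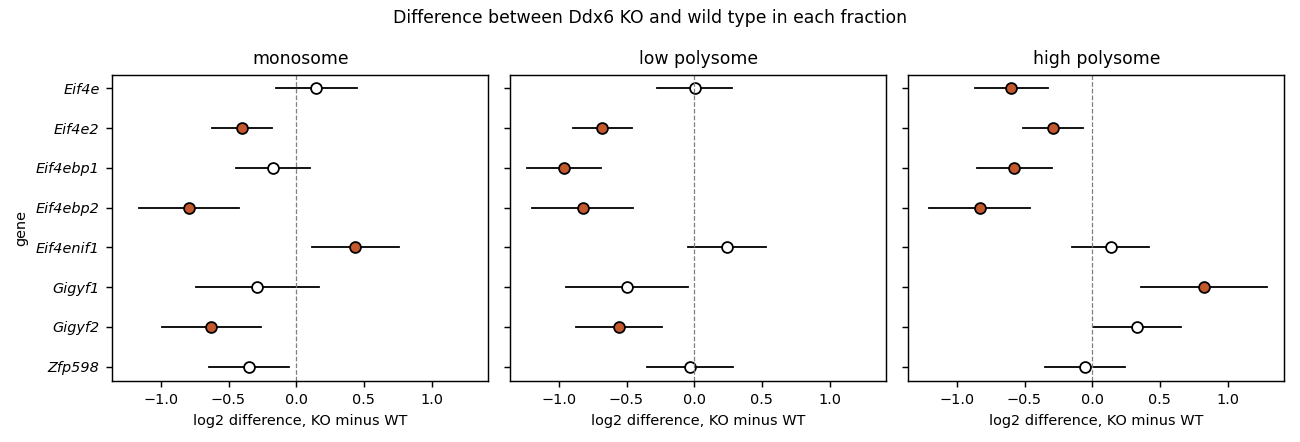
Log2 difference between Ddx6 KO and WT (x axis) for each gene (y axis) in monosomes, low polysomes and high polysomes, with 95% intervals and filled circles where the limma adjusted p was under 0.05. Eif4e2 and Eif4ebp2 are filled and below 0 in all 3 panels, and Gigyf2 moves from -0.63 in monosomes (filled) to 0.33 in high polysomes (open).

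The balance of the Eif4ebp1 and Eif4ebp2 mRNAs to the Eif4e mRNA was then taken within each library, where scaling between libraries cancels apart from the pseudocount. The log2 ratio of Eif4ebp1 plus Eif4ebp2 to Eif4e in monosomes was 5.28, 5.36 and 5.48 in WT and 5.05, 4.46 and 4.74 in KO. In low polysomes it was 5.54, 5.18 and 4.75 in WT and 4.32, 4.14 and 4.22 in KO. In both fractions every KO library was below every WT library, with mean differences of -0.63 and -0.93. In high polysomes the ratio was 3.06 ± 0.18 in WT and 2.99 ± 0.27 in KO (SD, n = 3), and the genotypes overlapped. The exact two-sided permutation p was 0.1 in monosomes and in low polysomes, the smallest that 3 against 3 allow, and 0.7 in high polysomes, which gave 0.3, 0.3 and 0.84 after Benjamini-Hochberg adjustment over the 6 ratios tested. The ratio of Gigyf2 to Gigyf1 overlapped between genotypes in every fraction, with log2 means of -0.72 ± 0.25 in WT and -1.03 ± 0.25 in KO monosomes, 0.14 ± 0.73 and 0.090 ± 0.51 in low polysomes, and 0.36 ± 0.17 and -0.12 ± 0.35 in high polysomes (SD, n = 3, exact permutation p = 0.2, 1 and 0.2).

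**Figure D5:**
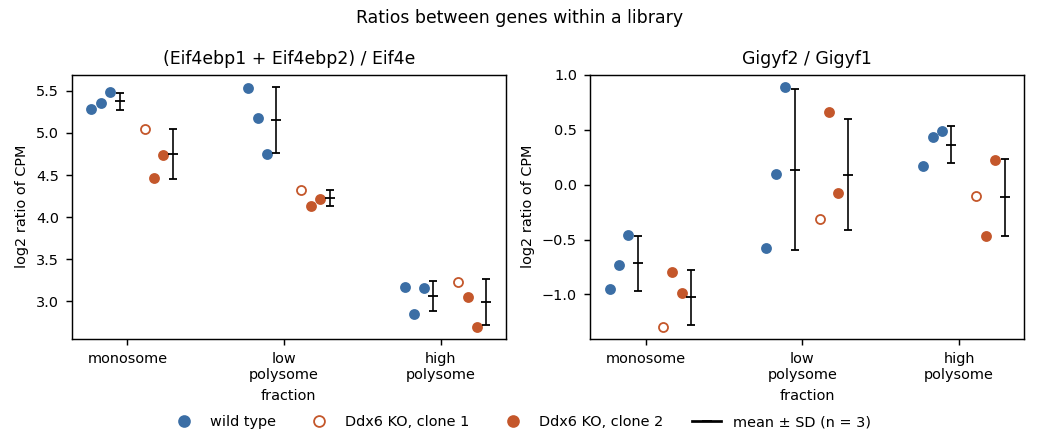
Log2 ratio of CPM within each library by fraction, for Eif4ebp1 plus Eif4ebp2 over Eif4e (left) and Gigyf2 over Gigyf1 (right), with WT in blue, Ddx6 KO in orange (open circles clone 1) and black bars for mean ± SD of 3 libraries. On the left the KO libraries lie below the WT libraries in monosomes and low polysomes and overlap them in high polysomes.

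Genes that act beside the members were read from 4 lists. Of 9 tested genes of eIF4F and its cap-binding relatives, 3 rose and 1 fell in the KO effect on translation level, with a median of 0.48, against 10.7% and 7.09% of all genes and a median of 0.022. Eif4g1, the scaffold of eIF4F, rose by 1.62 (SE 0.21, limma adjusted p = 0.0001), Eif4b, a cofactor of eIF4A, by 1.51 (SE 0.16, limma adjusted p = 1.8e-05), and Pabpc1, the poly(A)-binding protein, by 1.13 (SE 0.21, limma adjusted p = 0.0017). Set against WT by fraction, Eif4g1 was higher in KO high polysomes (1.65), where Eif4b (-0.067) and Pabpc1 (-0.18) were not called. Eif4b and Pabpc1 were lower in KO monosomes (-1.58 and -1.31) and low polysomes (-0.90 and -1.01). Their rise was thus a lower level in monosomes and not a higher one in high polysomes. Eif4g2, an eIF4G relative that does not bind eIF4E, fell by 0.62 on the log2 scale (limma adjusted p = 0.0358). Eif4g1 thus rose where Eif4e fell. Values of the genes in these 4 lists are given without subtraction of the coding length trend. After that subtraction Eif4e was no longer called (limma adjusted p = 0.224). The part of coding length in this contrast was not tested. Eif4ebp3, the other 4E-BP gene, had a value of 0.48 (SE 0.40, limma adjusted p = 0.424), and unlike Eif4ebp1 and Eif4ebp2 its WT translation level was above 0 (0.59, SE 0.30, limma adjusted p = 0.0969, not called). It was higher in WT low polysomes than in monosomes (1.62, SE 0.29, limma adjusted p = 0.00014). Eif4e1b and Eif4e3 did not pass the filter on low counts.

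Of 13 genes of mTORC1 and MNK signalling, which acts on the 4E-BPs and eIF4E, 3 rose and 1 fell, with a median of 0.043, where 10.7% of all genes rose and 7.09% fell. Mlst8, a subunit of mTORC1, rose by 0.86 (limma adjusted p = 0.0359), and Tsc1 and Tsc2, whose complex restrains mTORC1, rose by 0.77 (0.0177) and 0.76 (0.0495). Against WT, Mlst8 and Tsc2 were lower in KO monosomes (-0.90 and -0.57) and not called in high polysomes (-0.046 and 0.19). Tsc1 was higher in KO high polysomes (0.99). Rheb, the GTPase that activates mTORC1, fell by 1.53 on the log2 scale (SE 0.43, limma adjusted p = 0.0199). Mtor itself had a value of -0.0076 and was not called. Among the 11 repression partners, which include Ddx6 and the Tnrc6, Lsm14 and Zfp36 genes, 1 rose, Tnrc6b, by 0.97 (SE 0.33, limma adjusted p = 0.0488), none fell, and the median was -0.028. This count is near the 10.7% of all genes that rose.

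Of 14 genes of ribosome collision and quality control, the process in which Zfp598 acts, 4 rose and none fell, with a median of 0.44, where 10.7% of all genes rose, 7.09% fell and the median was 0.022. Gcn1l1, which encodes GCN1, a sensor of stalled ribosomes, rose by 1.22 (SE 0.29, limma adjusted p = 0.0081). Rack1, a protein of the small ribosomal subunit, rose by 1.06 (SE 0.19, limma adjusted p = 0.0013), Ltn1, a ubiquitin ligase that marks stalled nascent chains, by 0.91 (SE 0.28, limma adjusted p = 0.0291), and Tcf25, a partner of Ltn1, by 0.52 (SE 0.17, limma adjusted p = 0.0379). Against WT, Rack1 was lower in KO monosomes (-1.25) and low polysomes (-0.47) and not called in high polysomes (-0.19). Its rise was thus a lower level in monosomes. Gcn1l1, Ltn1 and Tcf25 were higher in KO high polysomes (0.98, 0.65 and 0.43). Zfp598 itself had a value of 0.30 and was not called. The list count and the shares of all genes were taken without subtraction of the coding length trend. With it, 427 genes were higher and 264 lower over all genes. The part of coding length in the list count was not tested.

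Finally, the genes whose levels followed each member most closely were found among 9017 genes with a mean of at least 10 CPM, by Pearson's r of log2 CPM over the 18 libraries. This is a description: the libraries share gradients and fractions, so any pair of genes with the same fraction profile scores highly. For Eif4ebp2 the closest were Snhg8 (r = 0.986), Snhg3 (0.985) and Gm13110 (0.980), and Snhg8 and Snhg3 are host genes of small nucleolar RNAs. For Eif4ebp1 they were Ndufa7 (0.985), Tomm22 (0.982) and Glrx5 (0.980), which all encode mitochondrial proteins. For Eif4e2 they were Kif15 (0.969), Arpp19 (0.964) and Gm2381 (0.955), and for Zfp598 Srsf6 (0.972), Mettl3 (0.959) and Coq9 (0.958). The members of lower level had looser companions: Rnf20 (0.918), Zfp827 (0.912) and Trps1 (0.904) for Gigyf2, Sarnp (0.889), Rpp30 (0.883) and Mob4 (0.867) for Eif4e, Epdr1 (0.889), Magohb (0.885) and Bid (0.876) for Eif4enif1, and Rint1 (0.886), Zfp367 (0.881) and Uap1 (0.845) for Gigyf1. Within the 8 members the closest pair was Eif4e2 and Eif4ebp1 (0.89) and the most opposed Eif4e and Gigyf1 (-0.73), while Gigyf1 and Gigyf2 scored 0.185.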

How the data were processed

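Per the labels and the study's methods, the authors prepared QuantSeq 3′ FWD libraries from each fraction, trimmed reads with cutadapt 1.14, kept unique alignments of STAR 2.5.3a to mm10 and counted them on the sense strand with featureCounts 1.5.3 on Gencode M14. They deposited raw counts per gene for 18 libraries, with no normalization. The 92 spike-in sequences held 28 to 169 counts in a library and were left out. Gene positions were taken from Gencode M21 (GRCm38), to which 51274 of 51467 genes matched.

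Genes with at least 3 CPM in at least 3 libraries were kept (12705). TMM scaling (edgeR 4.0.16), voom and limma 3.58.1 in R 4.3.3 were fitted to 6 group means over all 18 libraries. P-values were adjusted by Benjamini-Hochberg over all genes, with a call at an adjusted p under 0.05. The fit was run on simulated data with seeded changes, drawn as independent libraries without gradient or clone effects. That run cannot give the error rate under shared gradients and few clones, and its outcome is not reported here. Alternatives were DESeq2 1.42.0, edgeR's quasi-likelihood test, other scaling, no filter, the compared groups alone, each gradient left out, a replicate block and a subtraction of the coding length trend. CPM in the text are TMM-scaled, and log2 ratios of CPM carry a pseudocount of 0.5 CPM.

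Fractions with the same gradient number within a genotype came from one lysate and so were paired by design. Their deviations from the group means correlated with a median r of 0.0871 over 18 pairs, 6 of them over 0.1. Low with high polysomes of 1 gradient correlated at 0.296, 0.321 and 0.24 in WT gradients 1, 2 and 3, and at 0.464, -0.104 and -0.173 in KO. The main fit held no term for the gradient, which the replicate block added. Between genotypes the samples share only a number. Such pairs had a median r of 0.0694 over 27 pairs, 10 of them over 0.1. KO gradients were numbered with the single clone 1 gradient first and the clone 2 gradients next.

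The text names all 8 members, Ddx6, genes of 4 pathway lists called in the KO effect on translation level, and the 3 genes most like each member. The members and lists were chosen with earlier results of these data known. Gcn1l1 is the symbol in Gencode M21 for Gcn1. No protein sequence reference was used: the motif was searched in translations of the annotated coding sequences, and nucleotides are printed.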

Additional observations from a re-analysis of the deposited data

Results flagged for a closer look

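The KO effect differed between fractions, by the interaction term of the limma fit, for 4 members. Between high polysomes and monosomes the difference was 1.12 on the log2 scale for Gigyf1 (limma adjusted p = 0.0188), 0.96 for Gigyf2 (limma adjusted p = 0.0087) and -0.75 for Eif4e (limma adjusted p = 0.0124). Between low polysomes and monosomes it was -0.79 for Eif4ebp1 (limma adjusted p = 0.0213). For Gigyf2 the KO libraries were below WT in monosomes and above WT in high polysomes, where the difference was not called (limma adjusted p = 0.0861). Each of these 4 calls was lost without at least 1 gradient and after the coding length trend was subtracted. No group held more than 3 libraries, so single libraries were not tested as outliers.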

How the results depend on the processing

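The 34 calls of the 64 combinations of member and comparison kept their direction in all alternatives. All 34 were called with DESeq2 size factors, edgeR's quasi-likelihood test, the DESeq2 Wald test and the replicate block, 33 with library size alone and with the compared groups alone, 32 with no filter, and 27 to 31 with 1 gradient left out. The replicate block added Gigyf2 in WT low polysomes over monosomes (0.43) and Zfp598 in KO versus WT monosomes (-0.35, where gradients of different genotypes share only a number) and changed no other call. Subtracting the coding length trend ended all 4 calls of a KO effect it was applied to, for lengths of 92.7% of genes, leaving 0 members higher on translation level and 0 lower on low polysomes over monosomes, and turned uncalled values on translation level for Eif4ebp1 (0.19), Eif4ebp2 (0.54) and Zfp598 (-0.086), and on low polysomes over monosomes for Eif4e (0.048) and Eif4ebp2 (0.47). With library size alone, 2 members were lower on the KO effect on translation level, Eif4ebp1 being added (-0.53, adjusted p = 0.0451), 0 were higher in KO translation level, and Eif4e2 (-0.012) and Eif4enif1 (-0.013, KO translation level) turned. With no filter, 1 member was higher on the KO effect on translation level, Eif4e2 stood at -0.0020 and Zfp598 in KO versus WT low polysomes at 0.016. With the compared groups alone, 0 members were lower on low polysomes over monosomes, Eif4ebp2 there stood at 0.062 and Zfp598 in KO versus WT low polysomes at 0.012. Eif4e in KO versus WT low polysomes turned to -0.010 with DESeq2 size factors and -0.011 with the DESeq2 Wald test. The cause of these changes was not tested.

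With each gradient left out in turn, the number of members higher ranged from 0 to 2 on the KO effect on translation level, 1 to 2 on WT translation level, 1 to 3 on WT low polysomes over monosomes, and 0 to 1 on KO translation level and in KO versus WT monosomes and low polysomes. The number lower ranged from 0 to 1 on both KO effects. Uncalled values that changed sign ranged as follows. On the KO effect on translation level, Eif4e2 ran from -0.015 to 0.17 and Eif4ebp2 from -0.17 to 0.013. On low polysomes over monosomes, Eif4ebp2 ran from -0.23 to 0.037, Gigyf2 from -0.080 to 0.24, Eif4enif1 from -0.33 to 0.047 and Gigyf1 from -0.45 to 0.11. In KO versus WT low polysomes, Eif4e ran from -0.085 to 0.017 and Zfp598 from -0.19 to 0.12. The single-gradient values and the ratios moved by less than 1 SD, pooled over both genotypes, in all 112 recomputations with another pseudocount or 1 gradient left out. Leaving out 1 of 3 gradients cannot move a difference of means by 1 such SD, so that part was fixed in advance. It says nothing on how firm these values are. Depth limits Gigyf2 most, at 99 counts in its lowest library, and counting error adds to every low value.

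Over all genes, the KO effect on translation level (1357 higher, 901 lower) had 936 and 1389 calls with library size alone, 1326 and 1360 with the DESeq2 Wald test, 427 and 264 after subtraction of the coding length trend, and 471 to 869 higher and 277 to 668 lower without WT gradient 1 or 2 or KO gradient 2 or 3. The KO effect on low polysomes over monosomes (294 and 304) had 229 and 494 with library size alone, 503 and 477 with the DESeq2 Wald test, 271 and 73 with the compared groups alone, 94 and 17 after the length subtraction, and, on leaving out a gradient, only 8 and 5 (WT gradient 1), 47 and 38 (WT gradient 2) or 23 and 6 (KO gradient 3). With no filter (27427 genes), WT translation level had 4403 and 10866 against 3673 and 4087, and KO versus WT monosomes 2972 and 3929 against 2357 and 2548.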
